A study of Mus musculus with 8 samples.

Results

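The 42 genes described here encode matrix proteins typical of fibroblasts, together with the enzymes, contractile proteins and receptor that such cells carry, and their RNA was followed in mouse bone marrow-derived macrophages (BMDMs). The members were named as a list, and each was found in the count table through its Ensembl identifier and mouse symbol, 42 genes of 22165. Ctgf and Cyr61 stand in the annotation under their newer names Ccn2 and Ccn1. The study grew BMDMs of C57BL/6 mice for 7 days in medium with the growth factor M-CSF and crossed genotype with treatment, with 2 libraries in each of 4 groups. Nrf2 knockout (KO) cells given 250 µM dimethyl itaconate (DI) for 12 h were set against wild-type (WT) cells given the same dose, and untreated KO cells against untreated WT cells. DI is an electrophilic derivative of the metabolite itaconate, and NRF2, the product of Nfe2l2, is the transcription factor that switches on antioxidant genes under electrophilic stress. All 4 groups were grown in M-CSF, and the Nrf2-/- mice came from the Jackson Laboratory. The labels do not say whether the 2 libraries of a group are separate animals or cultures, whether KO and WT mice were littermates, or whether the KO mice lack NRF2 in all their cells. P-values can therefore speak only for how far these libraries scatter, and that scatter may be technical.

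Fibroblasts and the stromal cells of bone marrow build the scaffold around other cells. They secrete collagen chains that chaperones fold, proteases trim and lysyl oxidases crosslink, and they coat the resulting fibres with small proteoglycans and glycoproteins. Macrophages remodel this scaffold and make some of its components, whereas type I and type III collagen are classic products of mesenchymal cells. Contractile genes such as Acta2 mark fibroblasts that have become myofibroblasts, and the matricellular genes Ctgf and Cyr61 respond to TGF-β and to the YAP and TEAD factors that sense mechanical tension.

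The deposited total counts ranged from 5554288 to 15680671 per library, and 1 count was worth 0.0647 to 0.175 CPM, the count expressed per 1000000 counts of TMM-scaled library size. Nfe2l2 stood at 67.6 and 88.0 CPM in KO DI cells against 298 and 416 CPM in WT DI cells, and at 40.2 and 52.9 CPM in untreated KO cells against 230.2 and 454 CPM in untreated WT cells, so each KO library lay below each WT library. The labels do not give the deleted part of the gene. After removal of genes with low counts, 39 of the 42 members were tested among 11079 genes. Lum, which encodes the proteoglycan lumican, had 0 counts in all 8 libraries. Loxl1, a lysyl oxidase, and Mmp2, a gelatinase, had 50 and 22 counts over all libraries and were not tested. Of the 39 tested members, 8 exceeded the filter's level of 1.06 CPM in fewer than 2 KO libraries and so entered the test through WT libraries. They are Col4a2, Nid1, Col6a2, Col6a3, Mgp, Serpinf1, Myl9 and Pdgfrb, and counts over the other 31 members are given beside the main ones over 39.

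Many of the matrix genes were lower in KO than in WT cells, and with DI the summed level of all 42 members nevertheless overlapped between genotypes. All 42 summed to 1569 and 1216 CPM in KO DI cells against 1408 and 1448 CPM in WT DI cells, and 1149 and 1151 CPM in untreated KO cells against 1579.5 and 1316 CPM in untreated WT cells. The KO sum was 0.98 of the WT sum with DI and 0.79 without it, where KO libraries lay below WT libraries. Tpm1, Timp2 and Thbs1 alone held 60.6 to 88.4% of the members' counts and are described apart, a choice made after the values were seen. The other 39 members, Lum included, summed to 182 and 205 CPM in KO DI cells against 477 and 571 CPM in WT DI cells. Without DI they summed to 192 and 195 CPM in KO cells against 477 and 453 CPM in WT cells. For these 39 members the KO sum was 0.37 of the WT sum with DI and 0.42 without it, and KO and WT libraries did not overlap. By role and with all members of the role, the ratio of KO to WT ran from 0.13 for type VI collagen to 1.36 for contractile genes with DI, and from 0.28 for type VI collagen to 0.93 for proteases and inhibitors without. The mean sum was 193 CPM in KO DI and 193 CPM in untreated KO libraries, and 524 CPM in WT DI and 465 CPM in untreated WT libraries. In bulk RNA, fewer cells of a type and less RNA per cell cannot be told apart.

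**Figure D1:**
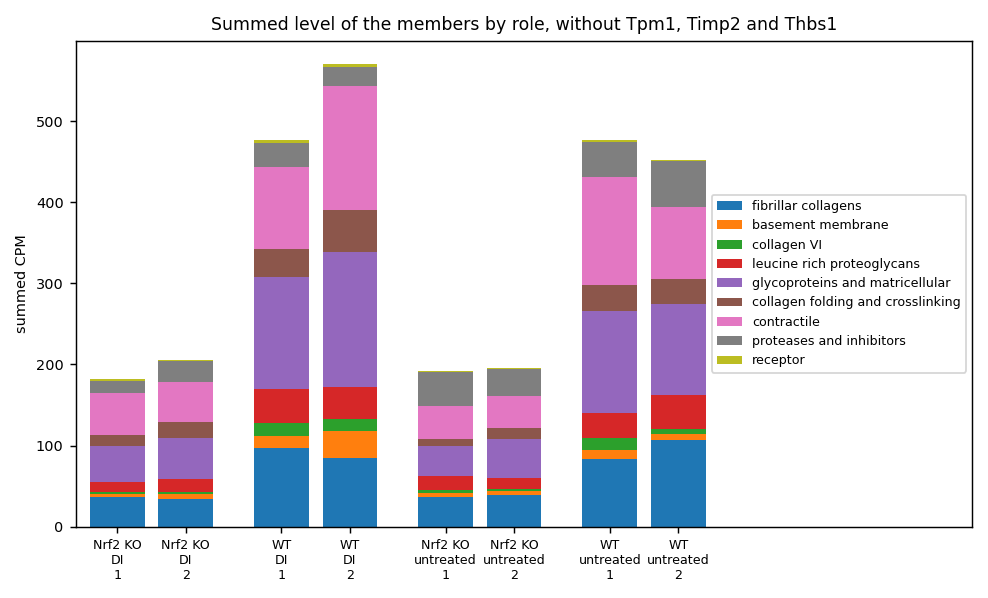
Summed level in CPM of the members other than Tpm1, Timp2 and Thbs1 in each library, stacked by role. The 4 KO bars end between 182 and 205 CPM and the 4 WT bars between 453 and 571 CPM, with and without DI.

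The members were chosen with earlier results of these data known, so their shares beside those of all genes are descriptive. With DI, 23 of 39 tested members were lower in KO than in WT cells (edgeR quasi-likelihood test, Benjamini-Hochberg adjusted p under 0.05), or 59%, against 9.74% of all tested genes. No member was higher, against 11.4% of all genes, with 1 member higher at an unadjusted p under 0.05 (18.7% of all genes) and 0 higher in DESeq2. Among the 31 members that passed the filter in KO libraries, 19 were lower. In untreated cells 7 of 39 were lower, or 17.9%, against 0.524% of all tested genes, and all 7 were among the 31. No member was higher there, against 0.0812% of all genes, none at an unadjusted p under 0.05 (3.34% of all genes) and none in DESeq2. At an unadjusted p under 0.05, 26 members were lower in each treatment, against 17.2% of all genes with DI and 7.3% without, and of the 31 these were 20 with DI and 23 without. The median log2 fold change of the tested members was -1.55 with DI and -1.34 without, and that of all tested genes was 0.01 with DI and -0.01 without. The 7 were Col1a2, Col5a2, Sparc, Ctgf, Cald1, Timp1 and Timp3. No member passed without untreated KO replicate 1 or replicate 2, where the 7 had edgeR adjusted p = 0.0925 to 0.442 and 0.075 to 0.34, 1 passed without untreated WT replicate 1 (the other 6 at 0.0506 to 0.152) and 4 passed without untreated WT replicate 2, among them Col5a2, Ctgf and Cald1 of the 7, where Col1a2, Sparc, Timp1 and Timp3 lost their call at 0.134 to 0.285. Col1a2 also lost its call without each DI library (0.0516 to 0.0602). With RLE scaling Col1a2, Timp1 and Timp3 had adjusted p = 0.0535, 0.0535 and 0.0531, with upper quartile scaling 0.0536, 0.0574 and 0.059, and in the fit of 2 groups Col1a2 had 0.078.

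Both treatments were also averaged, in a comparison added after the data were seen. Over DI and untreated cells, 26 of 39 members were lower in KO, or 66.7%, against 5.47% of all genes, and none was higher, against 4.45%. No member was higher there at an unadjusted p under 0.05 (11.6% of all genes) or in DESeq2. Of 26 tested members, each of the 4 KO libraries was below each of the 4 WT libraries, which held for 4.05% of all tested genes. No member had its 4 KO libraries above all WT libraries, against 2.58% of all genes, and 13 overlapped. Among the 31 members that passed in KO libraries, 22 were lower in the averaged test and 20 did not overlap.

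**Figure D2:**
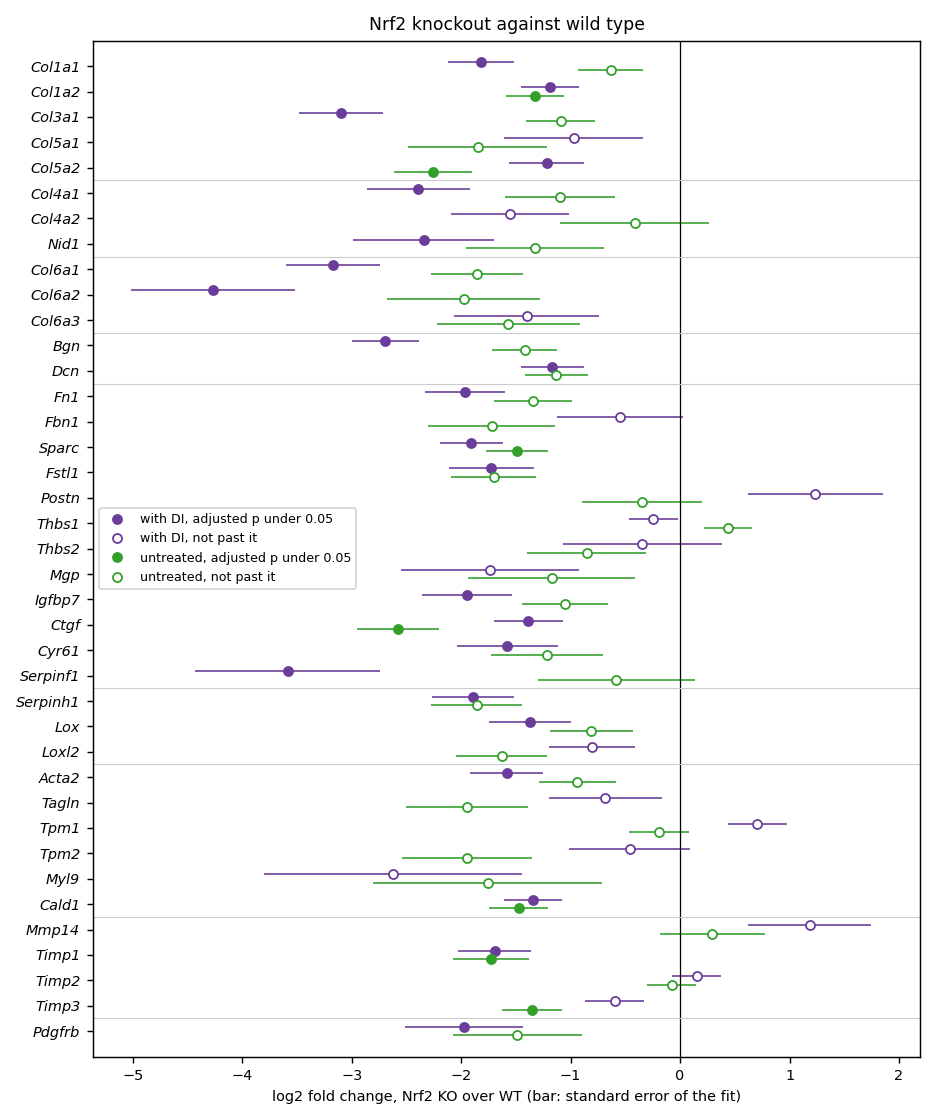
Log2 fold change of KO over WT for each tested member with DI (purple) and untreated (green), with the standard error of the fit. Filled points passed an adjusted p under 0.05, 23 with DI and 7 untreated, and all of these lie left of 0.

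The fibrillar collagens, which form the tensile fibres of connective tissue, were lower in KO for 4 of 5 genes with DI and for 2 of 5 without. Their summed level in KO was 0.39 of WT with DI and 0.40 without. Col1a1, the α1 chain of type I collagen (chromosome 11, 94936224 to 94953042 on the plus strand of mm10), had 2.77 and 4.15 CPM in KO DI cells against 13.3 and 11.3 CPM in WT DI cells, and 5.25 and 5.1 CPM in untreated KO cells against 7.77 and 8.28 CPM in untreated WT cells. The 4 KO libraries lay below the 4 WT libraries, and the change passed with DI, at -1.82 ± 0.30 on the log2 scale with edgeR adjusted p = 0.00158, while the untreated value was -0.64 with adjusted p = 0.478. Its partner chain Col1a2 had 28.9 and 24.6 CPM with DI in KO cells and 63.7 and 58.1 CPM with DI in WT cells, while untreated libraries held 22 and 27.2 CPM in KO and 47 and 76.8 CPM in WT. Again no KO library reached a WT library. Col1a2 fell by 1.19 ± 0.27 with DI (edgeR adjusted p = 0.00878) and by 1.33 ± 0.27 without (adjusted p just under 0.05). The type V chain Col5a2, which helps set fibre diameter, had 2.99 and 2.84 CPM in KO DI cells against 6.91 and 6.7 CPM in WT DI cells, and 2.62 and 1.84 CPM in untreated KO cells against 12.6 and 8.47 CPM in untreated WT cells. It was lower in KO under both treatments, by -1.22 ± 0.34 with DI (edgeR adjusted p = 0.0245) and -2.26 ± 0.35 without (adjusted p = 0.013). The DI call of Col5a2 was lost without KO DI replicate 1 (adjusted p = 0.0898), without KO DI replicate 2 (adjusted p = 0.0864), without WT DI replicate 1 (adjusted p = 0.0697) and without WT DI replicate 2 (adjusted p = 0.0694). Its partner Col5a1, at 0.874 to 2.03 CPM in KO and 1.77 to 6.55 CPM in WT libraries, passed in neither treatment.

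Among the fibrillar collagens, type III collagen had the largest difference between KO and WT with DI, and it was not tested against the others. Col3a1 (chromosome 1, 45311538 to 45349706, plus strand), which is abundant in loose and healing tissue, had 0.747 and 1.01 CPM in KO DI cells against 8.63 and 6.8 CPM in WT DI cells, and 5.6 and 3.9 CPM in untreated KO cells against 9.43 and 10.5 CPM in untreated WT cells. The KO DI libraries held the lowest values by far, the untreated KO libraries came next, and all 4 WT libraries were higher. The difference of KO from WT was -3.10 ± 0.39 with DI (edgeR adjusted p = 0.000216) and -1.09 ± 0.31 without (adjusted p = 0.178). Its promoter window is shown because Col3a1 was the one member whose response to DI was called different between genotypes. That is 2.56% of tested members, against 2.59% of all tested genes. The call, described below with the DI comparisons, depended on single libraries. Windows were taken from RefSeq (build GRCm38.p6) as the 300 bases from 250 before to 50 after the annotated start, 5′ to 3′ on the strand of the gene, and 28 of the 42 members had at least 1. Capitals mark matches, on either strand, to the TEAD motif GGAATG, to the TATA box TATAAA or to TGACNNNGC, the core of the antioxidant response element to which NRF2 binds. Col3a1 (chr1:45311288-45311587, plus strand) held a match to the TEAD motif starting 168 bases and a match to the letters TATAAA starting 117 bases before its start.
Col3a1: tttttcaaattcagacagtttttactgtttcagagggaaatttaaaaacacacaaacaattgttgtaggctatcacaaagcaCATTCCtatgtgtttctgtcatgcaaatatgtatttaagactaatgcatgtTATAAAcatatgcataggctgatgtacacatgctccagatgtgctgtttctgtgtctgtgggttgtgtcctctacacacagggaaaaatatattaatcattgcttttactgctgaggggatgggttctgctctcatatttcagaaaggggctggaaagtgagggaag

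Basement membrane genes encode the sheet of type IV collagen and linkers on which cells rest, and Col4a1 and Nid1 were lower in KO DI than in WT DI cells. Only Col4a1 of the 3 passed the filter in KO libraries, since Nid1 and Col4a2 entered the test through WT libraries. Their summed level in KO was 0.21 of WT with DI and 0.48 without. Col4a1 had 2.77 and 4.15 CPM in KO DI cells against 9.58 and 26.4 CPM in WT DI cells, and 4.2 and 2.17 CPM in untreated KO cells against 7.77 and 5.43 CPM in untreated WT cells. WT DI replicate 2 stood highest, and the KO libraries lay below all WT libraries. Col4a1 was lower in KO with DI, by -2.39 ± 0.47 (edgeR adjusted p = 0.00425), and differed by -1.10 without (adjusted p = 0.466). The DI call was lost without KO DI replicate 1 (adjusted p = 0.0573) and without WT DI replicate 2 (adjusted p = 0.0522). Col4a2, its partner chain, had 1.17 and 1.01 CPM with DI in KO cells and 3.3 and 3.17 CPM with DI in WT cells, while untreated libraries held 0.525 and 0.651 CPM in KO and 1.14 and 0.517 CPM in WT, and did not pass with DI (-1.55 ± 0.54, edgeR adjusted p = 0.0589). Nid1, which links type IV collagen to laminin, had 0.427 and 0.608 CPM in KO DI cells against 1.88 and 3.35 CPM in WT DI cells, and 0.35 and 1.08 CPM in untreated KO cells against 2.27 and 1.68 CPM in untreated WT cells, so KO and WT libraries did not overlap. It was lower with DI, by -2.34 ± 0.64 (edgeR adjusted p = 0.0233), a call lost without KO DI replicate 1 (adjusted p = 0.123), without KO DI replicate 2 (adjusted p = 0.0672) and without WT DI replicate 2 (adjusted p = 0.164).

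Col4a1 and Col4a2 lie head to head on chromosome 8. Col4a1 runs from 11312826 down to 11198423 on the minus strand and Col4a2 from 11312805 to 11449287 on the plus strand, so that their annotated starts are 21 bases apart. Their promoter windows overlap by 78 bases and are shown because both genes were called higher with DI in WT cells. The window of Col4a2 (chr8:11312555-11312854, plus strand) holds a TGACNNNGC match starting 74 bases before its start, and the window of Col4a1 (chr8:11312777-11313076, minus strand) holds none of the motifs searched.
Col4a1: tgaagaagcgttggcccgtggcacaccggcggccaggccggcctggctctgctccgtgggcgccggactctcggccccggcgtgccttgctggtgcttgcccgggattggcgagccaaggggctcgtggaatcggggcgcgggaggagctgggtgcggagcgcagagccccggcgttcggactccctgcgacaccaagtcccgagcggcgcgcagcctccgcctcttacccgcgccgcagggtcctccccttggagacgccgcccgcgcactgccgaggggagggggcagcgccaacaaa
Col4a2: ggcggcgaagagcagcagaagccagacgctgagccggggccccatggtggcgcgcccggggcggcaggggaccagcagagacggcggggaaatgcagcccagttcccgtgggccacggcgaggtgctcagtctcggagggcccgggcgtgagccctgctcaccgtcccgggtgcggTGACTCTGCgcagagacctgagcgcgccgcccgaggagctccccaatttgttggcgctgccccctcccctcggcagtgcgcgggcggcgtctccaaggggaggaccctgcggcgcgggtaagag

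Type VI collagen forms beaded filaments between cells and fibres and is assembled from 3 different chains encoded by Col6a1, Col6a2 and Col6a3. Its summed level in KO was 0.13 of WT with DI and 0.28 without. Only Col6a1 of the 3 passed the filter in KO libraries. Col6a1 (chromosome 10, 76708792 to 76726168, minus strand) had 1.17 and 0.81 CPM in KO DI cells against 9.26 and 8.75 CPM in WT DI cells, and 1.75 and 1.41 CPM in untreated KO cells against 7.34 and 4.07 CPM in untreated WT cells. Col6a2, its neighbour at 76595762 to 76623630, had 0.107 and 0.304 CPM with DI in KO cells and 4.4 and 4.1 CPM with DI in WT cells, while untreated libraries held 0.35 and 0.651 CPM in KO and 3.14 and 1.16 CPM in WT. In both genes every KO library was below every WT library. With DI, Col6a1 was lower in KO by -3.17 ± 0.43 (edgeR adjusted p = 0.000386) and Col6a2 by -4.27 ± 0.75 (adjusted p = 0.00217). The KO DI value of Col6a2 rests on 1 and 3 counts, so the size of its fold is imprecise. Untreated, Col6a1 differed by -1.85 (edgeR adjusted p = 0.0778) and Col6a2 by -1.98 (adjusted p = 0.306). Col6a3, at 0.747 to 1.05 CPM in KO and 1.29 to 4.1 CPM in WT libraries, did not overlap but passed in neither treatment.

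Small proteoglycans bind collagen fibrils and growth factors, and both members with counts were lower in KO DI cells. Bgn, biglycan (chromosome X, 73483602 to 73495933, plus strand), had 2.13 and 2.13 CPM in KO DI cells against 15.2 and 12.6 CPM in WT DI cells, and 3.15 and 4.12 CPM in untreated KO cells against 10.2 and 9.57 CPM in untreated WT cells. KO libraries were clear of WT libraries in each treatment, and the change with DI was -2.69 ± 0.31 (edgeR adjusted p = 0.000113), against -1.42 without (adjusted p = 0.0565). Dcn, decorin, had 10.5 and 13.8 CPM with DI in KO cells and 27.6 and 26.8 CPM with DI in WT cells, while untreated libraries held 14.9 and 9.87 CPM in KO and 21.4 and 32.1 CPM in WT. Its KO and WT libraries did not overlap either, with a change of -1.17 ± 0.28 with DI (edgeR adjusted p = 0.0131, lost without KO DI replicate 1 (adjusted p = 0.0916)) and -1.13 without (adjusted p = 0.116).

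Of 12 glycoprotein and matricellular genes, 7 were lower in KO with DI and 2 without, or 6 and 2 of the 10 that passed the filter in KO libraries. Their summed level in KO was 0.56 of WT with DI and 0.88 without. Sparc, a collagen-binding glycoprotein (chromosome 11, 55394500 to 55423183, minus strand), had 18.2 and 27.5 CPM in KO DI cells against 73 and 98.7 CPM in WT DI cells, and 15.7 and 24.6 CPM in untreated KO cells against 56.4 and 57.9 CPM in untreated WT cells. All KO libraries were under 28 CPM and all WT libraries over 56 CPM. Sparc was lower in KO by -1.91 ± 0.29 with DI (edgeR adjusted p = 0.000804) and by -1.49 ± 0.29 without (adjusted p = 0.0411). Fn1, the cell-adhesion protein fibronectin, had 3.52 and 2.03 CPM with DI in KO cells and 10.05 and 11.5 CPM with DI in WT cells, while untreated libraries held 2.8 and 4.45 CPM in KO and 10.9 and 8.02 CPM in WT, again without overlap. Its change with DI was -1.97 ± 0.36 (edgeR adjusted p = 0.00279). Fstl1, a secreted follistatin-like protein, had 3.84 and 3.14 CPM in KO DI cells against 14.4 and 8.94 CPM in WT DI cells, and 4.37 and 3.36 CPM in untreated KO cells against 16.5 and 8.53 CPM in untreated WT cells, and fell by 1.73 ± 0.39 in KO with DI (edgeR adjusted p = 0.00912, lost without KO DI replicate 2 (adjusted p = 0.0548) and without WT DI replicate 1 (adjusted p = 0.0574)). Igfbp7, a binding protein of insulin-like growth factors, had 1.28 and 3.24 CPM with DI in KO cells and 7.69 and 9.78 CPM with DI in WT cells, while untreated libraries held 2.97 and 4.01 CPM in KO and 6.46 and 8.21 CPM in WT, with a change of -1.95 ± 0.41 (edgeR adjusted p = 0.00627). Serpinf1, which encodes the secreted serpin PEDF, had 1 and 2 counts in KO DI cells against 19 and 13 in WT DI cells, a ratio of 0.0833 with a 95% counting interval of 0.0163 to 0.266. Its edgeR adjusted p was 0.0114, a call lost without KO DI replicate 1 (adjusted p = 0.0825) and without WT DI replicate 1 (adjusted p = 0.0834).

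The paired matricellular genes Ctgf and Cyr61 were also lower in KO. Ctgf (chromosome 10, 24595442 to 24598683, plus strand) had 8.85 and 6.28 CPM in KO DI cells against 18.8 and 20.7 CPM in WT DI cells, and 1.75 and 2.39 CPM in untreated KO cells against 16.2 and 9.25 CPM in untreated WT cells. Untreated KO libraries were lowest and WT DI libraries highest, and each KO library lay below each WT library. KO differed from WT by -1.39 ± 0.32 with DI (edgeR adjusted p = 0.00981, lost without KO DI replicate 2 (adjusted p = 0.0618)) and by -2.58 ± 0.37 without (adjusted p = 0.00857). Cyr61 had 2.77 and 1.22 CPM with DI in KO cells and 6.91 and 5.12 CPM with DI in WT cells. Untreated libraries held 1.57 and 1.19 CPM in KO and 3.93 and 2.46 CPM in WT. Cyr61 was lower in KO libraries than in WT libraries of the same treatment, with overlap only across treatments. It was lower in KO with DI, by -1.58 ± 0.46 (edgeR adjusted p = 0.0304), a call lost without KO DI replicate 2 (adjusted p = 0.156), without WT DI replicate 1 (adjusted p = 0.124) and without WT DI replicate 2 (adjusted p = 0.0508). The promoter window of Cyr61 (chr3:145649936-145650235, minus strand) is shown because it holds all 3 motifs marked in capitals, a TEAD motif starting 103 bases, a TGACNNNGC match 62 bases and a TATA box 25 bases before its start.
Cyr61: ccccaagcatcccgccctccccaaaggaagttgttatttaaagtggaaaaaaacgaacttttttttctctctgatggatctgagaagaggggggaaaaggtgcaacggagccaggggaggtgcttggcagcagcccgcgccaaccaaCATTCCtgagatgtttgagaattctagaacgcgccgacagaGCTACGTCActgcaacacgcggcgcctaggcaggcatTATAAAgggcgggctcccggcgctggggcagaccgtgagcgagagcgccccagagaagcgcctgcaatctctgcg

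Of the 31 member windows, 8 (25.8%) held a TEAD motif, against 14.7% of 32851 promoter windows of the same length. TGACNNNGC was present in 5 member windows (16.1%), against 12.4% of all windows, and TATAAA in 5 (16.1%), against 13.6%. The CArG box, the site of the muscle regulator SRF, was searched only as CCWWWWWWGG, where W is A or T. It was found in 1 (3.23%), against 1.63%. Stretches 1 base off this pattern, such as ccctatatgg and ccttgtttgg in the window of Acta2, were not counted. These letter matches describe the windows only.

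The other glycoprotein members did not pass in either treatment. Thbs1, which encodes thrombospondin 1 and is made by macrophages too, had 114 and 112 CPM in KO DI cells against 144 and 123 CPM in WT DI cells, and 173 and 189.9 CPM in untreated KO cells against 150.1 and 118 CPM in untreated WT cells. Its KO libraries were below the WT libraries with DI and above them without, with changes of -0.24 (edgeR adjusted p = 0.456) and 0.44 (adjusted p = 0.523). Postn, periostin, stood at 1.49 and 2.94 CPM in KO DI cells against 0.942 and 0.931 CPM in WT DI cells, a change of 1.24 ± 0.62 (edgeR adjusted p = 0.169). Fibrillin 1 (Fbn1), Thbs2 and matrix Gla protein (Mgp) ranged from 0.203 to 4.02 CPM in KO libraries and from 0.466 to 11.7 CPM in WT libraries.

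Among genes for collagen folding and crosslinking, 2 of 3 tested members were lower in KO with DI and none without by edgeR, where 2 had an unadjusted p under 0.05. Serpinh1, the collagen chaperone HSP47, had 2.88 and 6.89 CPM in KO DI cells against 15.7 and 20.6 CPM in WT DI cells, and 2.8 and 2.39 CPM in untreated KO cells against 11 and 7.76 CPM in untreated WT cells. No KO library reached a WT library, and the change was -1.89 ± 0.37 with DI (edgeR adjusted p = 0.0044) and -1.86 without (adjusted p = 0.0722). Lox, lysyl oxidase, had 5.12 and 3.95 CPM with DI in KO cells and 8.16 and 15 CPM with DI in WT cells, while untreated libraries held 3.85 and 5.97 CPM in KO and 6.72 and 10.7 CPM in WT. It was lower with DI, by -1.37 ± 0.38 (edgeR adjusted p = 0.0238), a call lost without KO DI replicate 1 (adjusted p = 0.0656), without KO DI replicate 2 (adjusted p = 0.111) and without WT DI replicate 2 (adjusted p = 0.203). Loxl2 ranged from 2.45 to 9.42 CPM in KO and from 9.26 to 15.6 CPM in WT libraries and passed in neither treatment. Loxl1 had 0 counts in both KO DI libraries against 9 and 10 in WT DI cells. With the KO DI group set to a floor of 3 counts and the WT counts taken as exact, it was 7.13-fold lower.

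**Figure D3:**
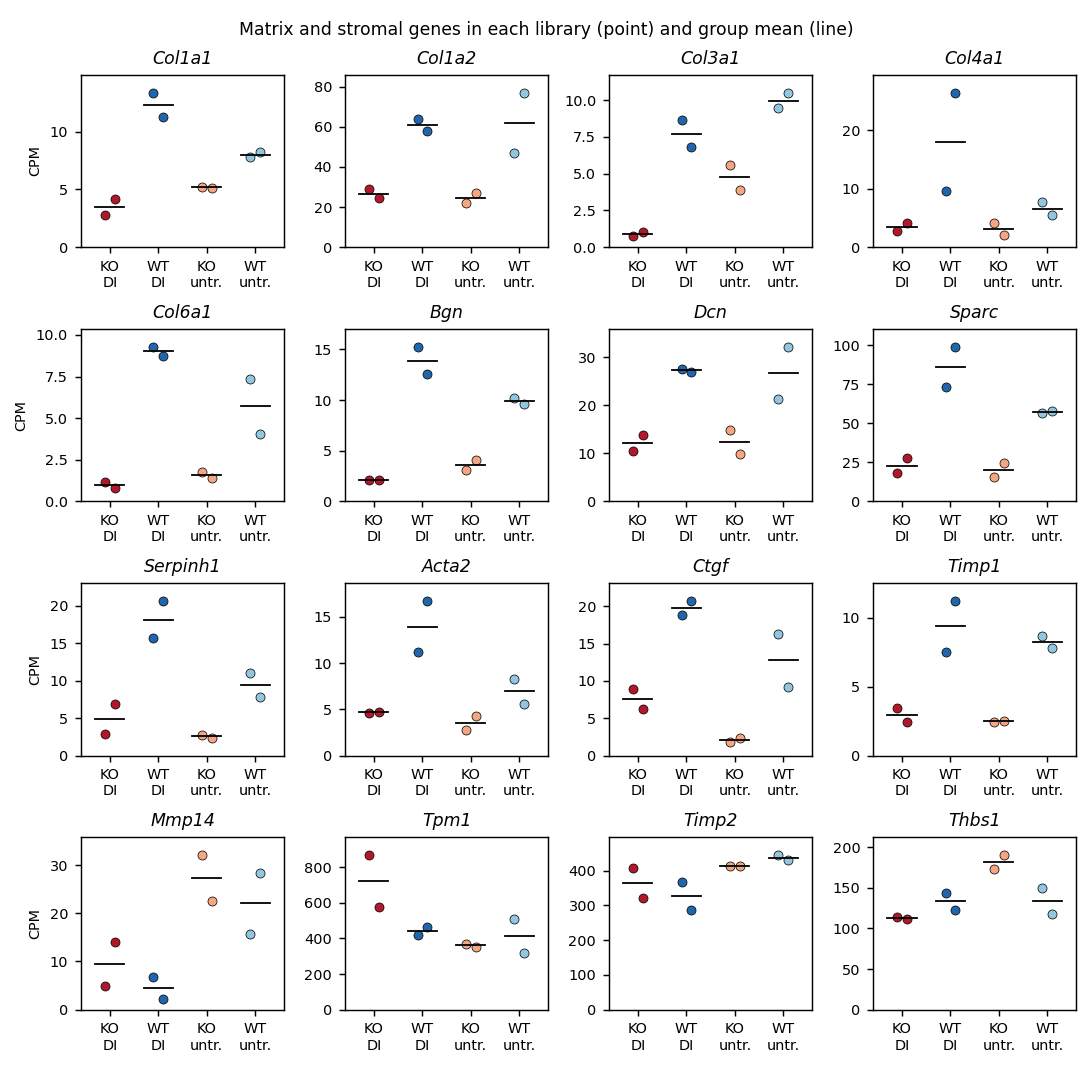
Level in CPM of 16 members in each library (points) with group means (lines), each panel from 0 on its own linear axis, KO and WT with DI at left and untreated (untr.) at right. In the first 12 panels, Col1a1 to Timp1, all KO points lie below all WT points. Over both treatments, the KO and WT points of Mmp14, Tpm1, Timp2 and Thbs1 overlap. Within a treatment, those of Tpm1 are apart with DI, those of Timp2 untreated and those of Thbs1 in both.

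Of 6 contractile genes, 2 were lower in KO with DI and 1 without, and their summed level, mostly Tpm1, was 1.36 of WT with DI and 0.77 without. Cald1, caldesmon, had 41.6 and 40.6 CPM in KO DI cells against 81.6 and 127 CPM in WT DI cells, and 34.3 and 32.3 CPM in untreated KO cells against 109 and 75.7 CPM in untreated WT cells. KO libraries stayed under 42 CPM and WT libraries over 75 CPM. Cald1 was lower in KO by -1.35 ± 0.27 with DI (edgeR adjusted p = 0.0044) and by -1.47 ± 0.27 without (adjusted p = 0.0293). Acta2, α-smooth muscle actin (chromosome 19, 34241090 to 34255590, minus strand), had 4.59 and 4.76 CPM with DI in KO cells and 11.1 and 16.7 CPM with DI in WT cells, while untreated libraries held 2.8 and 4.23 CPM in KO and 8.3 and 5.56 CPM in WT. It was lower in KO with DI, by -1.58 ± 0.33 (edgeR adjusted p = 0.0063, lost without WT DI replicate 2 (adjusted p = 0.054)), and differed by -0.94 without (adjusted p = 0.349). Its promoter window (chr19:34255324-34255623, minus strand), shown because Acta2 also responded to DI in WT cells, holds a TEAD motif starting 146 bases before its start.
Acta2: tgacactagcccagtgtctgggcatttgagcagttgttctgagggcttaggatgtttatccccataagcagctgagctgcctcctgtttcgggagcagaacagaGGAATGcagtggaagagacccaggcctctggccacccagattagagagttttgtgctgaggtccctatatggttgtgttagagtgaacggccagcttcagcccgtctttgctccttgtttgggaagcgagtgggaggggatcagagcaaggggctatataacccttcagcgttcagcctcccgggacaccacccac

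Tpm1, a tropomyosin of the actin filament that macrophages also carry (chromosome 9, 67022590 to 67049406, minus strand), had 866 and 578 CPM in KO DI cells against 419 and 466 CPM in WT DI cells, and 369 and 353 CPM in untreated KO cells against 509 and 316 CPM in untreated WT cells. KO DI libraries were above the other 6, and the genotypes overlapped without DI. Tpm1 passed in neither genotype comparison, at 0.71 ± 0.27 with DI (edgeR adjusted p = 0.0831) and -0.19 without. Tagln, Tpm2 and Myl9, other proteins of the contractile apparatus, ranged from 0 to 3.84 CPM in KO and from 0.647 to 10.2 CPM in WT libraries and passed in neither. Myl9 had 3 counts over both KO DI libraries against 18 over both WT DI libraries, a ratio of 0.148 with a 95% counting interval of 0.0279 to 0.507.

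Among proteases and their inhibitors, Timp1, an inhibitor of matrix metalloproteinases, was lower in KO, and its relative Timp2 passed in neither treatment. The summed level of the role, mostly Timp2, was 1.09 of WT with DI and 0.93 without. Timp1 had 3.41 and 2.43 CPM in KO DI cells against 7.54 and 11.2 CPM in WT DI cells, and 2.45 and 2.49 CPM in untreated KO cells against 8.65 and 7.82 CPM in untreated WT cells. No libraries overlapped between genotypes, with changes of -1.69 ± 0.33 with DI (edgeR adjusted p = 0.00425) and -1.73 ± 0.35 without (adjusted p just under 0.05). Timp3, which stays bound to the matrix, had 6.93 and 9.42 CPM with DI in KO cells and 14.4 and 10.5 CPM with DI in WT cells, while untreated libraries held 7.52 and 7.27 CPM in KO and 18.3 and 19.4 CPM in WT, also without overlap. It passed in untreated cells only, at -1.35 ± 0.27 (edgeR adjusted p just under 0.05), with -0.60 ± 0.27 with DI (adjusted p = 0.133), and the interaction of 0.76 ± 0.38 did not pass (adjusted p = 0.227). Timp2 had 408 and 320.3 CPM in KO DI cells against 367 and 288 CPM in WT DI cells, and 415 and 413 CPM in untreated KO cells against 444 and 430.4 CPM in untreated WT cells. Its genotypes overlapped with DI, and the change was 0.15 with DI (edgeR adjusted p = 0.659) and -0.08 without (adjusted p = 0.948). Mmp2 had 0 counts in both KO DI libraries against 6 and 2 in WT DI cells. With the KO DI group set to a floor of 3 counts and the WT counts taken as exact, it was 3.0-fold lower.

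Pdgfrb, the β receptor for platelet-derived growth factor and a surface marker of mesenchymal cells, had 1.49 and 0.506 CPM in KO DI cells against 4.4 and 3.54 CPM in WT DI cells, and 0.699 and 0.868 CPM in untreated KO cells against 2.53 and 2.0 CPM in untreated WT cells. These values rest on 4 to 38 counts per library, and every KO library was below every WT library. Pdgfrb was lower in KO with DI, by -1.97 ± 0.54 (edgeR adjusted p = 0.0231, lost without KO DI replicate 2 (adjusted p = 0.121), without WT DI replicate 1 (adjusted p = 0.088) and without WT DI replicate 2 (adjusted p = 0.0528)), and differed by -1.49 without (adjusted p = 0.376).

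The members' proportions within their sum overlapped between genotypes, with 1 exception, when both treatments were read together. Each member's percentage of the summed counts of the 39 members other than Tpm1, Timp2 and Thbs1 was taken per library, so that these values add to a fixed whole and depend on each other. Cald1 held 16.6 to 22.9% in KO and 16.7 to 22.9% in WT libraries, and Col1a2 held 11.5 to 15.9% in KO and 9.86 to 17% in WT libraries. Dcn held 5.06 to 7.75% in KO and 4.49 to 7.08% in WT libraries, and Sparc 8.2 to 13.4% in KO and 11.8 to 17.3% in WT libraries. Ranges of the 4 KO and the 4 WT libraries overlapped for 38 of the 39 members, a number that includes Lum at 0 in every library. The exception was Bgn, at 1.04 to 2.112% in KO and 2.114 to 3.19% in WT libraries, so its ranges nearly touched. Within DI, with 2 libraries a group, 11 of the 39 had both KO libraries below both WT libraries and 8 had them above, and within untreated cells 6 lay below and 5 above. With only 2 libraries a group, some members separate by the order of the libraries alone. These counts were not compared with that, and the proportions have no counterpart over all genes. With DI, Col3a1 held 0.411 and 0.494% in KO against 1.81 and 1.19% in WT, and Col6a1 held 0.646 and 0.395% in KO against 1.94 and 1.53% in WT. Postn lay the other way, at 0.822 and 1.43% in KO against 0.197 and 0.163% in WT. In both treatments Bgn lay below in KO, and Mmp14 and Thbs2 lay above. Mmp14 held 2.7 and 6.86% in KO against 1.41 and 0.375% in WT with DI. Untreated, it held 16.7 and 11.6% in KO against 3.28 and 6.28% in WT.

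Other genes of mesenchymal cells that are not members moved the same way, in part. Their list, and those of other cells and matrix genes below, were also chosen with earlier results of these data known. In these lists, genes that entered the test through WT libraries were not counted apart, so their shares carry that limit. Of 20 listed stromal identity genes, 13 were tested, and with DI 3 were lower in KO and 1 was higher (23.1 and 7.69%, against 9.74 and 11.4% of all tested genes). The receptor Fgfr1 differed by -2.16 ± 0.36 (edgeR adjusted p = 0.00149), Gas1 by -2.92 ± 0.87 (adjusted p = 0.0323) and Cdh11, a cadherin of mesenchymal cells, by -1.16 ± 0.38 (adjusted p = 0.0471). Nes, nestin, was higher by 0.94 ± 0.31 (edgeR adjusted p = 0.0473). The largest rise, 1.40, was that of the fibroblast gene Fap, which did not pass after adjustment. At an unadjusted p under 0.05 in edgeR, 2 of the 13 were higher with DI, Nes and Fap (18.7% of all genes). By the same measure 8 were lower (17.2% of all genes). Untreated, none of the 13 passed in edgeR, 8 were lower at an unadjusted p under 0.05 (7.3% of all genes) and all 13 log2 fold changes were below 0, as were those of 51.1% of all tested genes. In the averaged comparison 6 were lower (46.2%, against 5.47% of all genes), namely Fgfr1, Cdh11, Prrx1, Ddr2, Gas1 and Gpx8. The summed level of the 20 genes was 191 and 159 CPM in KO DI cells against 159 and 211 CPM in WT DI cells, and 119 and 99.6 CPM in untreated KO cells against 142 and 218 CPM in untreated WT cells, most of it from Nes and Kitl. The fibroblast transcription factors Twist2 and Tcf21 had 0 counts in every library, the surface marker Thy1 had 8 counts in all and Pdgfra 67. The part of stromal cell number in the lower matrix genes was not tested beyond these values.

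**Figure D4:**
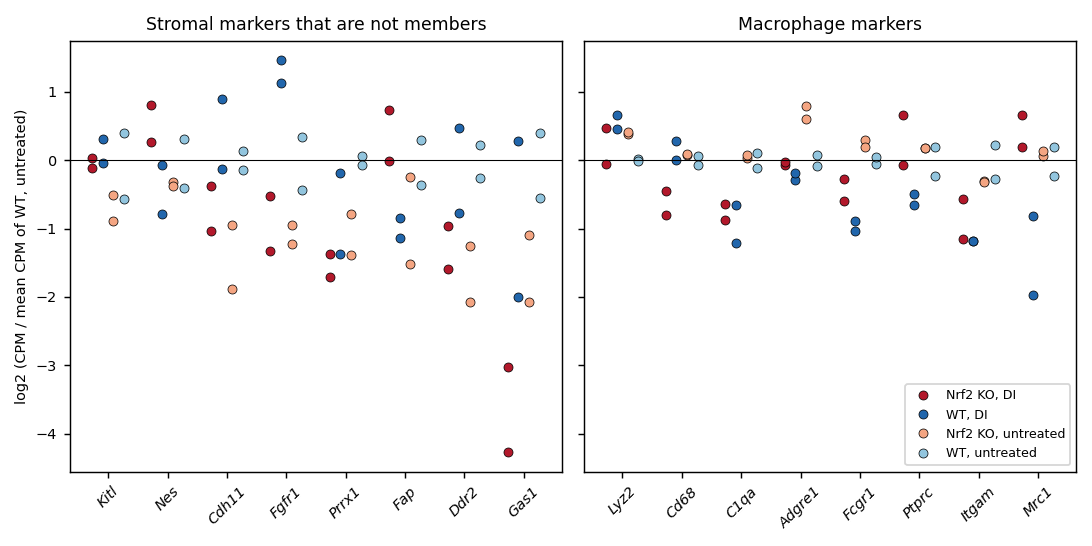
Log2 ratio of each library's CPM to the mean of untreated WT libraries, for the 8 stromal identity genes and 8 macrophage genes of highest mean level in their lists. In DI libraries the KO points lie below the WT points for Cdh11, Fgfr1, Ddr2, Gas1 and the macrophage gene Cd68, above them for Nes, Fap and the macrophage genes Adgre1, Fcgr1, Ptprc, Itgam and Mrc1, and overlap for Kitl, Prrx1, Lyz2 and C1qa.

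Markers of other cells were read by sums and calls, and their part in the members' levels was not tested. The 12 macrophage genes summed to 5572 and 5872 CPM in KO DI cells against 5307 and 5874 CPM in WT DI cells, and to 7389 and 7531 CPM in untreated KO cells against 6338 and 6241 CPM in untreated WT cells. With DI, 3 of the 12 were higher in KO (Cd14 at 1.95, Mrc1 at 1.73 and Ptprc at 0.91) and 2 were lower (Cd68 at -0.76 and Csf1r at -0.72), or 25 and 16.7%, against 11.4 and 9.74% of all genes. Untreated, none passed in edgeR and 2 were higher at an unadjusted p under 0.05 (3.34% of all genes). The 10 pericyte and smooth muscle genes summed to 6.93 and 7.59 CPM in KO DI cells against 3.45 and 5.77 CPM in WT DI cells, and to 5.07 and 6.4 CPM in untreated KO cells against 8.99 and 8.73 CPM in untreated WT cells, with Cnn1 at 0. Among the 10 endothelial genes, whose Tek and Cldn5 had no counts, Kdr held most of the sum, which was 121 and 147 CPM in KO DI cells against 41.8 and 46.8 CPM in WT DI cells, and 112 and 107 CPM in untreated KO cells against 89.3 and 112 CPM in untreated WT cells. The osteoblast and chondrocyte list, with Bglap and Omd at 0, summed to 17.4 and 20.3 CPM in KO DI cells against 28.1 and 41.6 CPM in WT DI cells, and to 16.1 and 13.4 CPM in untreated KO cells against 19.6 and 18.8 CPM in untreated WT cells. The sum of the adipocyte list consisted almost wholly of Lpl, which macrophages also make, and 2 of its 7 genes, Cidec and Cfd, had no counts. The adipocyte sum was 6350 and 6035 CPM in KO DI cells against 14256 and 15824 CPM in WT DI cells, and 7560 and 5845 CPM in untreated KO cells against 12255 and 8039 CPM in untreated WT cells. The platelet list, mostly Pf4 and with Tubb1 at 0, summed to 510 and 358 CPM in KO DI cells against 744 and 713 CPM in WT DI cells, and to 238 and 284 CPM in untreated KO cells against 212 and 209 CPM in untreated WT cells. In KO DI cells 1 of 3 tested pericyte genes was higher (33.3%). Endothelial genes had 1 higher and 1 lower of 5 (20% each), and osteoblast genes 1 and 1 of 2 (50% each). Adipocyte and platelet genes each had 2 lower of 3 (66.7%). Over all genes 11.4% were higher and 9.74% lower. Untreated, only 1 adipocyte gene of these 5 lists passed, lower in KO (33.3%, against 0.524% of all genes).

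Enzymes that process collagen were partly lower in KO as well. Of 15 listed, 12 were tested and 4 were lower with DI (33.3%, against 9.74% of all tested genes). These were P4ha2 at -2.42 ± 0.40 (edgeR adjusted p = 0.00156) and P4hb at -0.65, which together form a prolyl hydroxylase, Crtap at -1.27 and the procollagen protease Bmp1 at -2.84. Bmp1 rests on 1 and 3 counts in KO DI against 12 and 14 in WT DI libraries. Of 34 other matrix genes, 16 were tested and 7 were lower with DI (43.8%), led by Emilin1 at -0.99, Tgfbi at -0.91, Lamb1 at -1.99 and Hspg2 at -2.55. In untreated cells no gene of either list passed in edgeR, with 2 processing enzymes and 6 other matrix genes lower at an unadjusted p under 0.05 (7.3% of all genes). Of 20 mechanosensitive and TGF-β related genes, 18 were tested, 3 were lower with DI (Tgfb2 at -1.57, Actn1 at -0.85 and Flna at -0.85) and 2 were higher (Skil at 1.29 and Smad7 at 0.87), or 16.7 and 11.1%, against 9.74 and 11.4% of all genes.

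DI changed few members in either genotype. In KO cells 2 of 39 were higher with DI and 1 was lower, or 5.13 and 2.56%, against 4.49 and 4.0% of all tested genes. In WT cells 3 were higher and 1 was lower, or 7.69 and 2.56%, against 6.51 and 8.68% of all genes. The shares were near those of all genes except for the lower ones in WT cells, and of the 31 members 2 rose and 1 fell in each genotype. The KO and WT comparisons use separate libraries, and the members' median log2 fold change was 0.11 in KO and 0.10 in WT, against 0.005 in KO and -0.02 in WT over all tested genes.

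**Figure D5:**
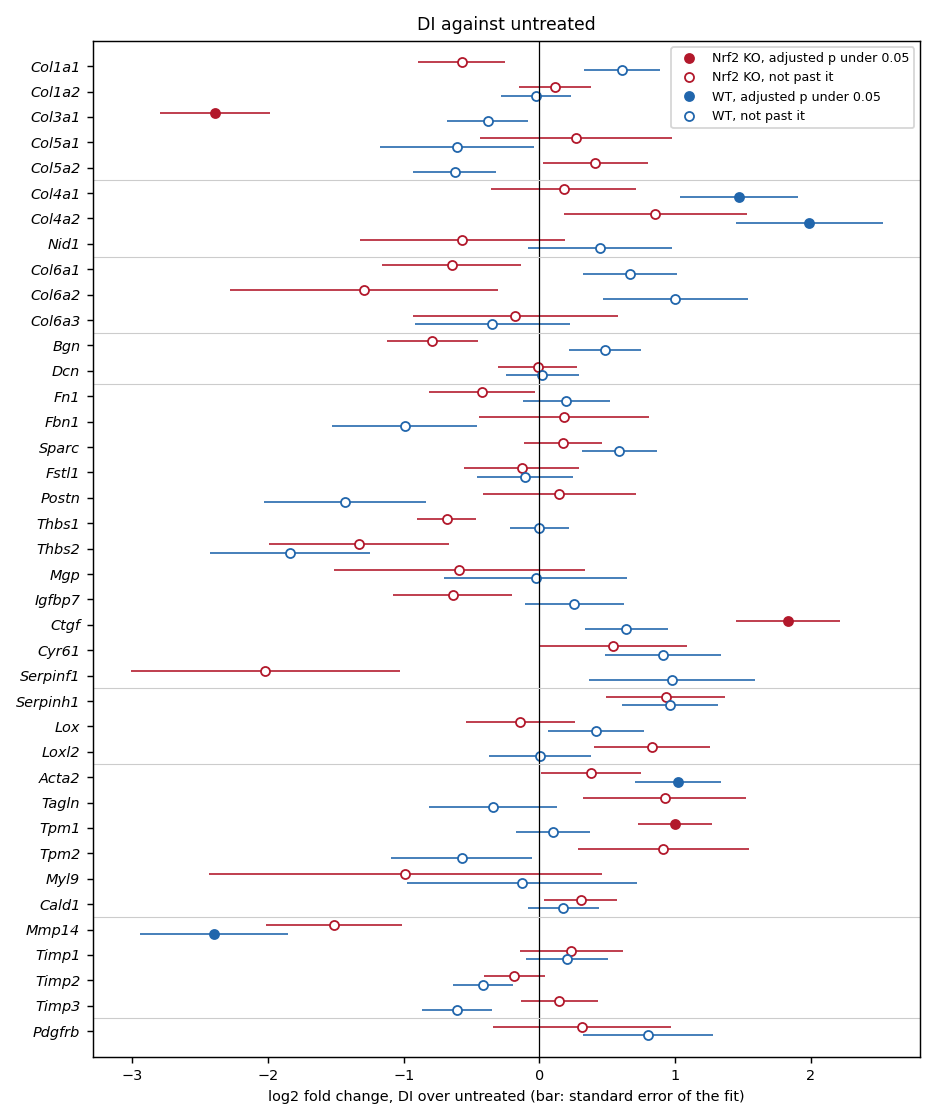
Log2 fold change of DI over untreated for each tested member in KO (red) and WT (blue) cells, with the standard error of the fit. Most points lie within 1 of 0, and the filled points that passed are Col3a1, Ctgf and Tpm1 in KO and Col4a1, Col4a2, Acta2 and Mmp14 in WT.

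In KO cells Ctgf and Tpm1 rose with DI and Col3a1 fell. Ctgf had 8.85 and 6.28 CPM in KO DI cells against 1.75 and 2.39 CPM in untreated KO cells, a change of 1.83 ± 0.38 (edgeR adjusted p = 0.0155). Its WT libraries held 18.8 and 20.7 CPM with DI and 16.2 and 9.25 CPM without, a change of 0.64 (adjusted p = 0.173), and the difference between genotypes, 1.19 ± 0.49, did not pass (adjusted p = 0.148). Tpm1 rose by 1.0 ± 0.27 in KO (edgeR adjusted p = 0.0435, or 0.0583 with upper quartile scaling) and differed by 0.10 in WT, with an interaction of 0.90 ± 0.38 (adjusted p = 0.162). Col3a1 fell to 0.747 and 1.01 CPM in KO DI cells, against 5.6 and 3.9 CPM in untreated KO cells, a change of -2.39 ± 0.40 (edgeR adjusted p = 0.00642). In WT cells Col3a1 differed by -0.38 ± 0.30 (adjusted p = 0.424). No member rose in KO without KO DI replicate 1 or either untreated KO library, where Ctgf had adjusted p = 0.0879, 0.12 and 0.0865 and Tpm1 0.266, 0.208 and 0.226. Col3a1 had adjusted p = 0.0554 without untreated KO replicate 1, where 0 members fell, and 2 members fell without KO DI replicate 2.

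The response of Col3a1 to DI differed between genotypes, by -2.01 ± 0.51 on the log2 scale (edgeR adjusted p = 0.0327), 1 of 39 members (2.56%), also 1 of the 31, against 2.59% of all tested genes. No member had a higher response in KO than in WT, against 4.96% of all genes, with 2 at an unadjusted p under 0.05 (15.0% of all genes) and 0 in DESeq2. The Col3a1 difference was -1.81 without KO DI replicate 1 (adjusted p = 0.114), -1.87 without WT DI replicate 1 (0.0819), -1.78 and -2.26 without untreated KO replicates 1 and 2 (0.122 and 0.0601), and -1.94 and -2.08 without untreated WT replicates 1 and 2 (0.071 and 0.0834). The other fibrillar collagens gave interactions of -1.18 ± 0.42 for Col1a1, 0.14 ± 0.37 for Col1a2, 0.88 ± 0.91 for Col5a1 and 1.04 ± 0.49 for Col5a2, none of which passed.

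In WT cells Col4a1, Col4a2 and Acta2 were called higher with DI, and Mmp14 was called lower. Col4a2 entered the test through WT libraries, with 3 WT libraries and 1 KO library over the filter's level. Its call is limited by that entry and by low counts. Col4a2 had 3.3 and 3.17 CPM in WT DI cells against 1.14 and 0.517 CPM in untreated WT cells, a change of 1.99 ± 0.54 (edgeR adjusted p = 0.0274). Col4a1, with 9.58 and 26.4 CPM in WT DI cells against 7.77 and 5.43 CPM in untreated WT cells, changed by 1.47 ± 0.44 (adjusted p = 0.0401). In KO cells DI gave 0.85 ± 0.67 for Col4a2 and 0.18 ± 0.53 for Col4a1, and neither passed, nor did the interactions of -1.14 ± 0.89 and -1.29 ± 0.69. Acta2 changed by 1.02 ± 0.32 in WT cells (edgeR adjusted p = 0.0481) and 0.38 ± 0.37 in KO cells (adjusted p = 0.55). Acta2 did not pass in DESeq2 (adjusted p = 0.0713) or in the fit of 2 groups (0.0535), Col4a1 did not pass in the fit of 2 groups (0.0663), and Col4a2 did not pass in DESeq2 (0.057). Without WT DI replicate 2 or untreated WT replicate 2 no member rose. There Col4a1 changed by 0.57 and 1.23, Col4a2 by 2.05 and 1.49, and Acta2 by 0.72 and 0.75, with adjusted p from 0.0989 to 0.439. One member rose without untreated WT replicate 1 or untreated KO replicate 2, and Col4a2 had adjusted p = 0.0927 without WT DI replicate 1. Of the 8 fits without 1 library, Acta2 passed in 1, that without WT DI replicate 1, and Col4a1 in 2, those without WT DI replicate 1 and untreated KO replicate 1; its other adjusted p-values ran from 0.0514 to 0.439 and those of Acta2 from 0.0525 to 0.283.

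Mmp14, a membrane-bound protease that cleaves collagen and that macrophages also carry (chromosome 14, 54431612 to 54445364, plus strand), had 4.91 and 14.1 CPM in KO DI cells against 6.75 and 2.14 CPM in WT DI cells, and 32 and 22.6 CPM in untreated KO cells against 15.6 and 28.4 CPM in untreated WT cells. DI libraries lay below untreated libraries in both genotypes. It fell by 2.398 ± 0.55 in WT cells (edgeR adjusted p = 0.0116) and differed by -1.51 ± 0.50 in KO cells (adjusted p = 0.0829), with an interaction of 0.89 ± 0.73 (adjusted p = 0.464). The WT call was lost without WT DI replicate 2 (adjusted p = 0.121) and without untreated WT replicate 2 (adjusted p = 0.0978), and without untreated WT replicate 2 no member fell. Thbs1 differed by -0.68 ± 0.22 with DI in KO cells (edgeR adjusted p = 0.0759) and by -0.001 ± 0.22 in WT cells (adjusted p = 0.999), and Timp2 by -0.18 in KO and -0.42 in WT cells, none of which passed.

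Some matrix-related genes outside the members responded to DI. The laminin chain Lamc1 rose by 1.72 ± 0.32 in KO (edgeR adjusted p = 0.0091) and 1.01 ± 0.30 in WT cells (adjusted p = 0.0407). P4ha2 rose in WT cells, by 1.87 ± 0.38 (edgeR adjusted p = 0.00611), and Tgfbi fell in KO cells, by 1.67 ± 0.23 (adjusted p = 0.00294). DI also raised Fgfr1 in WT cells by 1.31, and Emilin1 fell by 1.17 in KO cells.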

How the data were processed

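Poly(A) RNA of 8 libraries was primed with barcoded oligo-dT, pooled and amplified in 12 PCR cycles, per the labels' protocols, which describe no molecular identifier, so repeated reads cannot be told from molecules. The deposited values are raw counts per gene and library for 22165 genes. Per the submitters' processing notes, the tools were STAR, HTSeq and DESeq2 and the build mm10, with no version named, and for the annotation release the sources used here give none. Symbols and coordinates came from GENCODE M21, which matched 21745 genes, and promoter windows from RefSeq (GRCm38.p6).

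Groups were taken from the labels. The deposited counts were filtered with edgeR's filterByExpr (minimum count 10), scaled by TMM and tested with edgeR 4.0.16 (R 4.3.3, limma 3.58.1) by the robust quasi-likelihood F-test, with 1 mean per group over all 8 libraries and Benjamini-Hochberg adjustment over 11079 genes. An adjusted p under 0.05 was called, with no fold threshold, and errors after ± are standard errors of the fit. CPM are not divided by gene length. Where a group held 1 to 3 counts, its ratio has an exact 95% interval, which covers counting error only. A group with 0 counts was set to a floor of 3 counts, which leaves out the counting error of the other group. The libraries of a group differed beyond counting error, at 16.1 to 47.9 chi-square units per degree of freedom, so they were kept as separate replicates. The steps were tested on simulated data.

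The members and the other gene lists were chosen with earlier results of these data known. Values per library are given for members called in any comparison, for the member of highest mean CPM of each role and for Col1a1, Col1a2, Col3a1, Dcn, Lum and Pdgfrb. From the other lists, up to 4 called genes of smallest p per comparison could be named. Alternatives were other scalings, no filter, DESeq2 1.42.0, a block for the replicate number, a fit of only the groups compared, and each library left out.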

Additional observations from a re-analysis of the deposited data

Results flagged for a closer look

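The response of Col3a1, type III collagen, to DI differed between genotypes, by -2.01 ± 0.51 on the log2 scale (edgeR adjusted p = 0.0327). Its KO libraries held 0.747 and 1.01 CPM with DI and 5.6 and 3.9 CPM untreated, and its WT libraries 8.63 and 6.8 CPM with DI and 9.43 and 10.5 CPM untreated. The KO DI values rest on 7 and 10 counts.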

How the results depend on the processing

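No member call changed sign under any alternative. Of the 23 members lower in KO with DI, all 23 kept their call under other scalings, without the filter, in DESeq2, with the replicate block and in the fit of 2 groups, and 12 kept it without each library in turn (Col1a1, Col1a2, Col3a1, Col6a1, Col6a2, Bgn, Fn1, Sparc, Igfbp7, Serpinh1, Cald1 and Timp1). Of the 26 lower in the averaged comparison, 19 kept their call without each library. None of the 7 untreated, 4 WT DI and 3 KO DI calls did.

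Leaving out 1 library gave 16 to 24 members lower in KO with DI (0 to 1 higher), 0 to 7 lower untreated (0 to 0 higher) and 20 to 26 lower in the averaged comparison (0 to 0 higher). For DI against untreated it gave 0 to 2 higher and 0 to 2 lower in KO, 0 to 2 higher and 0 to 1 lower in WT, and 0 to 1 lower and 0 to 0 higher for the interaction. These fits leave 1 group with a single library, which is assumed to vary like the others. The number of calls over all tested genes changed in these fits too, so the changes are not particular to the members. Members lower in untreated KO numbered 4 with RLE or upper quartile scaling, 18 without the filter and 11 in DESeq2. Over all genes, those lower there numbered 50 with RLE and 47 with upper quartile scaling, of 11079. They numbered 325 of 15299 without the filter and 142 of 10955 in DESeq2. Without the filter, 2 members were higher in KO with DI and 1 was higher in the averaged comparison. There, 2 were lower with DI in WT and 2 in KO. Over all 15299 genes these calls numbered 1603, 752, 1283 and 668 in the same order. With upper quartile scaling 2 members were lower and 1 higher with DI in KO, against 609 and 374 genes. DESeq2 called 1 member higher with DI in WT and 3 lower in KO, against 742 and 522 of 10665 genes. In the averaged comparison DESeq2 lost Serpinf1 (adjusted p = 0.0544) and Tagln (0.0705). The causes were not tested.

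The labels number the replicates 1 and 2 in each group. Same-numbered libraries were not shown to deviate together, with correlations of -0.0799 to 0.156 between groups, so the numbers are not taken as pairs. A block for the replicate number left 23 members lower in KO with DI, 5 lower untreated and 1 higher with DI in WT. Without it there were 7 untreated and 3 in WT. Over all genes the block left 1048, 58 and 703 such calls, against 1079, 58 and 721 without it. Under the block, untreated Col1a2, Timp1 and Timp3 had adjusted p = 0.0569, 0.0663 and 0.066, Col4a1 and Acta2 with DI in WT 0.0601 and 0.0618, and Tagln in the averaged comparison 0.0589. Depth limits Lum, Thbs2, Mgp, Serpinf1, Loxl1, Myl9 and Mmp2, each under 100 counts over all libraries.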
